A study of Homo sapiens with 12 samples.

Results

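The BCL2 family of apoptosis regulators was examined as 10 genes chosen by symbol, out of the 19447 gene symbols in the count table. The anti-apoptotic members were BCL2, BCL2L1 (which encodes BCL-XL), BCL2L2 (BCL-W), MCL1 and BCL2A1. The effectors were BAX and BAK1, and the BH3-only members were BCL2L11 (BIM), BBC3 (PUMA) and PMAIP1 (NOXA). All 10 symbols were present in the table. Messenger RNA had been sequenced in 12 libraries, 3 for each of 4 groups. The parental K562 cells are a chronic myeloid leukemia line of human origin with the BCR-ABL fusion kinase, and all 4 groups come from it. K562/IM is a derivative made resistant to the BCR-ABL inhibitor imatinib (IM) by stepwise exposure and then kept in 5 µM IM, so that the effect of resistance and that of the drug in the medium cannot be told apart. Lycorine, an Amaryllidaceae alkaloid, was given at 6 µM in K562+L and K562/IM+L, for a time before sequencing that is not given in the sources used here. Each line is a single derivation, and nothing states that the 3 libraries of a group came from separate cultures.

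The labels name the K562/IM+L group with another number than the study's figures do, and ABCB1 was therefore checked first. ABCB1, which encodes the drug efflux pump P-gp, had a mean of 1.76 CPM in K562, 4.28 in K562+L and 23.6 in K562/IM, where CPM is the count scaled to the TMM-normalized library size. In the 3 libraries labelled K562/IM+L it lay between 0.488 and 1.06 CPM, below every K562 library (lowest 1.68). The group is called the K562/IM+L-labelled libraries below, and each direction drawn from it rests on that label. The label was kept as deposited, and the reason for the low ABCB1 in these libraries was not tested. The comparisons of K562+L and of K562/IM with K562 did not use these libraries. Markers of the K562 erythroid lineage, 8 genes with GATA1, TAL1, KLF1, HBG1, HBG2, TFRC and LYL1 among them, were all at 1 CPM or more in every group. Their summed level ran from 5540 to 7541 CPM in K562, 3850 to 4378 in K562+L, 2290 to 2536 in K562/IM and 23313 to 31158 in the K562/IM+L-labelled libraries. Most of the last came from HBG1 and HBG2, with means of 8516 and 16991 CPM there. Against K562, 6 of the 8 were higher there at an adjusted p under 0.05 and 0 lower (28.2% and 27.8% of all genes, edgeR). GATA1 and TFRC did not pass. The summed level of 3 T cell markers was 21.4 to 23.1 CPM in K562/IM, nearly all from CD3D (mean 22.0), and at most 2.82 elsewhere. The 3 B cell markers summed to at most 2.60 CPM and the 3 fibroblast markers to at most 6.65, both highest in K562/IM, and MS4A1 was at 0 in every group. The 4 epithelial markers summed to 412 to 712 CPM, from EPCAM, KRT8 and KRT19, while mean CDH1 stayed at or under 0.0631. The 3 monocyte markers summed to 75.4 to 171 CPM, nearly all from LYZ, while mean CD14 stayed at or under 0.159. The part of these markers in the results on the BCL2 family was not tested.

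BCL2 family proteins decide whether the mitochondrial outer membrane is opened. The effectors BAX and BAK form pores that release cytochrome c. The anti-apoptotic proteins bind the effectors and the BH3-only proteins in a groove on their surface, and the BH3-only proteins sense stress and occupy that groove or engage the effectors directly. In chronic myeloid leukemia, BCR-ABL signalling through STAT5 is known to sustain BCL2L1 and MCL1, and its inhibition is known to release BIM. The feature shared across these proteins is the BH3 segment, which in most of them holds a leucine followed, after a short gap, by a glycine and an aspartate. The coding sequence of that core is shown because it is the part through which members bind each other. It was found by its codons in the GENCODE 29 coding sequences (GRCh38), with the leucine codon and the glycine and aspartate codons in capitals.

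BCL2: CTCcgccaggccGGCGACgacttctcc
BCL2L1: CTGagggaggcaGGCGACgagtttgaa
MCL1: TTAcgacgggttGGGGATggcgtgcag
BAX: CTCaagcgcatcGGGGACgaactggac
BAK1: CTCgccatcatcGGGGACgacatcaac
BCL2L11: TTGcggcgtattGGAGACgagtttaac
BBC3: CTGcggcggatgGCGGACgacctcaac
PMAIP1: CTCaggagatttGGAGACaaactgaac

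These windows lie in coding exons. The BCL2 window is in exon 2 at chr18:63318352-63318378 on the minus strand and that of BCL2L1 in exon 2 at chr20:31721925-31721951 on the minus strand. The MCL1 window is in exon 1 at chr1:150578868-150578894 on the minus strand. BAX has it in exon 3 at chr19:48955787-48955813 on the plus strand and BAK1 in exon 4 at chr6:33575390-33575416 on the minus strand. The BCL2L11 window is in exon 4 at chr2:111150103-111150129 on the plus strand, that of BBC3 in exon 3 at chr19:47226582-47226608 on the minus strand and that of PMAIP1 in exon 2 at chr18:59902673-59902699 on the plus strand. In BBC3 an alanine codon stands in the place of the glycine codon. The codon pattern was not matched in BCL2L2 or BCL2A1. The counts are for whole genes, and do not separate the splice forms of BCL2L1, MCL1 and BCL2L11 that are known to differ in their effect on apoptosis.

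When the members were compared per length of merged exons (CPM per kilobase), MCL1 was first and BCL2L1 second in all 4 groups, BCL2 was 9th and BCL2A1 10th. The place of BCL2L1 depended on the length used. The merged exons of BAX have 2587 bases and its longest transcript 1358, and those of BCL2L1 3314 and 2610. With the longest transcript as length, BAX stood before BCL2L1 in the K562/IM+L-labelled libraries. MCL1 stood at 70.7 ± 7.49 CPM per kilobase in K562 (SD, n = 3), 83.8 ± 4.12 in K562+L, 97.7 ± 2.99 in K562/IM and 51.1 ± 3.45 in the K562/IM+L-labelled libraries. BCL2L1, the next member, stood at 35.3 ± 2.43, 27.8 ± 0.960, 71.7 ± 0.318 and 22.5 ± 1.64 CPM per kilobase in the same order. MCL1 and BCL2L1 did not overlap in any group. BCL2L1 overlapped with PMAIP1, the member after it, in K562+L (26.7 to 28.6 and 24.0 to 26.9 CPM per kilobase) and with no member below it in the other groups. The middle of the order was closer. In K562 the libraries of BAX, at 18.9 CPM per kilobase, overlapped with those of PMAIP1 at 16.5, and these with BAK1 at 14.8. In the K562/IM+L-labelled libraries, the 6 genes from BAX at the 3rd place to BAK1 at the 8th each overlapped with the next. These overlaps are by merged exons. With the longest transcript as length, BAX did not overlap with PMAIP1 in either of these groups, nor PMAIP1 with BAK1 in K562. BCL2 lay below all other members but BCL2A1, at 0.551 ± 0.0991 CPM per kilobase in K562 and 0.0461 ± 0.0103 in K562/IM. BCL2A1, an anti-apoptotic member known from NF-κB responses, was counted 4 times in 1 K562 library (0.0477 CPM) and listed at 0 in the other 11. It did not pass the filter on low counts and was not tested, so that 9 of the 10 members were tested in each comparison.

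**Figure D1:**
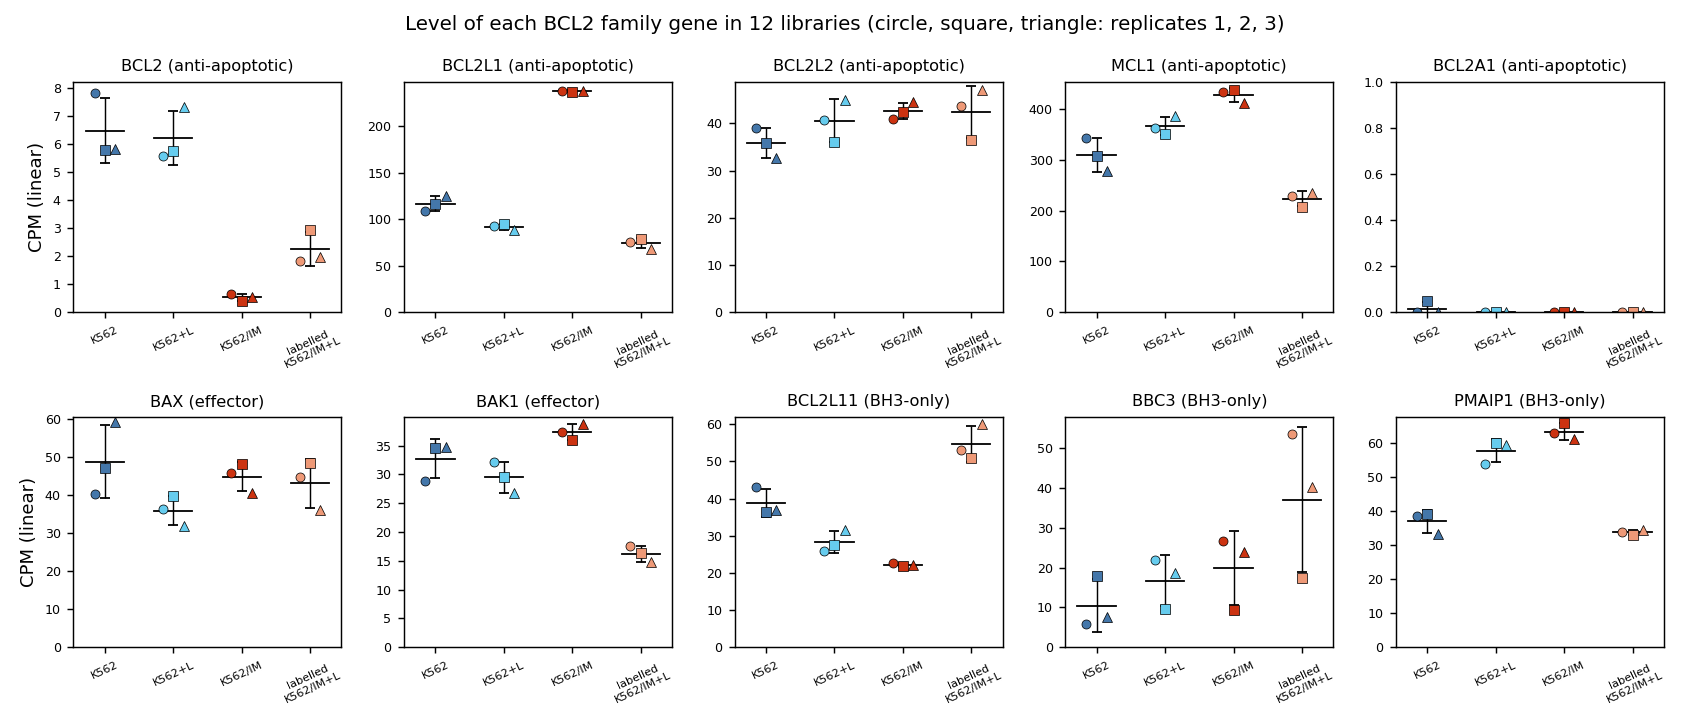
CPM of each member (linear axis) in the 12 libraries, with the mean (line) and SD (bars) of 3 libraries a group and replicates 1, 2 and 3 as circles, squares and triangles. BCL2 falls from a mean of 6.48 CPM in K562 to 0.542 in K562/IM while BCL2L1 goes from 117 to 238, and the square of BBC3 lies apart from the other 2 symbols in every group.

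Between K562+L and K562 the changes were small. PMAIP1 rose, BCL2L1 and BCL2L11 fell, and no member reached an absolute log2 fold change over 1. At an adjusted p under 0.05 (edgeR's quasi-likelihood test, Benjamini-Hochberg adjustment), 1 of 9 members tested was higher and 2 were lower, where 18.2% of all 12927 genes tested were higher and 19.0% lower. With the fold threshold added 6.39% of all genes passed and 0 members did, also by the unadjusted p and with DESeq2. The share of members was thus near that of all genes, and the median log2 fold change of the members was -0.06 against 0.00 for all genes. The count of 3 was 5 without K562 replicate 1 and 1 without K562+L replicate 1.

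Between K562/IM and K562 the anti-apoptotic members moved in opposite directions. BCL2 fell by 3.58 on the log2 scale and BCL2L1 rose by 1.02. In all 4 members were higher and 2 lower, against 30.1% and 27.1% of the 13406 genes tested, and 2 passed the fold threshold against 19.1% of all genes. The median of the members was 0.25, with 0.04 for all genes. In the K562/IM+L-labelled libraries against K562/IM, 2 members were higher and 4 lower, where 33.2% and 33.6% of 13727 genes were. With the fold threshold 4 members passed against 28.5% of genes, and the medians were -0.03 and -0.01. Against K562, the K562/IM+L-labelled libraries had 2 members higher and 4 lower, where 28.2% and 27.8% of 13307 genes were, and 3 passed the fold threshold against 23.8% of genes. The medians there were -0.20 and 0.02. Under upper-quartile scaling the median of all genes in that comparison moved by 0.15 and the share of calls that were higher went from 50.4% to 61.3%. These comparisons share the K562 or the K562/IM libraries, so that they are not independent of each other. Lower levels in a bulk sample can come from fewer cells that carry a transcript or from less of it per cell, and the counts cannot tell these apart.

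**Figure D2:**
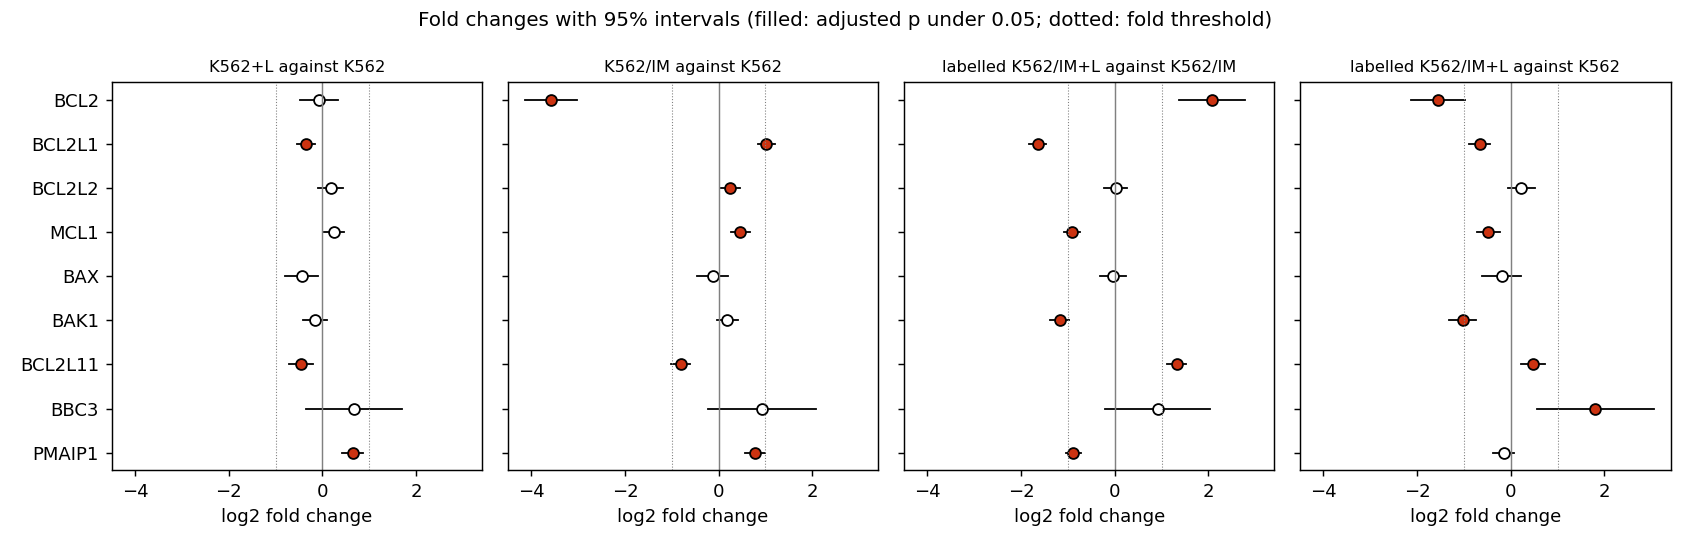
The log2 fold change of the 9 tested members in 4 comparisons, as points with 95% intervals; filled points have an adjusted p under 0.05 (edgeR's quasi-likelihood test), and dotted lines mark -1 and 1. BCL2 and BCL2L1 lie on opposite sides of 0 in K562/IM against K562 and again, with signs exchanged, in the K562/IM+L-labelled libraries against K562/IM.

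BCL2, the founding anti-apoptotic member, lies on chr18:63123346-63320128 (minus strand). It held 7.83, 5.79 and 5.83 CPM in the K562 libraries and 5.56, 5.76 and 7.31 in K562+L. In K562/IM it held 0.659, 0.416 and 0.551 CPM, and in the K562/IM+L-labelled libraries 1.84, 2.94 and 1.97. The K562 and K562+L libraries overlapped, every K562/IM library was below all others, and the labelled group lay between. The counts behind K562/IM were 55, 40 and 59, the lowest of any tested member. The log2 fold change was -0.06 ± 0.18 (SE; adjusted p = 0.805, edgeR's quasi-likelihood test) in K562+L. Its 95% interval ran from -0.47 to 0.34, so that changes within these bounds are not excluded. In K562/IM against K562 the difference was -3.58 ± 0.24 (adjusted p = 1.6e-05, edgeR). The K562/IM+L-labelled libraries were 2.08 ± 0.30 above K562/IM (adjusted p = 0.000584) and -1.55 ± 0.24 from K562 (adjusted p = 0.00146, both edgeR). BCL2 thus stayed below K562 in both groups of the resistant line as labelled.

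BCL2L1, which lies on chr20:31664452-31723989 (minus strand) and encodes BCL-XL, was at 109, 117 and 125 CPM in K562. It was at 92.7, 94.7 and 88.5 CPM in K562+L, 238, 237 and 238 in K562/IM, and 75.9, 79.3 and 68.6 in the K562/IM+L-labelled libraries. No 2 groups overlapped, and the K562/IM libraries had a coefficient of variation of 0.443%. BCL2L1 rose in K562/IM (log2 fold change 1.02 ± 0.07, adjusted p = 2.46e-05, edgeR). It fell in the K562/IM+L-labelled libraries, by 1.65 on the log2 scale against K562/IM (SE 0.07, adjusted p = 2.04e-06) and by 0.67 against K562 (SE 0.10, adjusted p = 0.0011, both edgeR). In K562+L it fell by 0.35 (SE 0.09, adjusted p = 0.0167, edgeR). That call did not hold without K562 replicate 2, K562+L replicate 1 or K562+L replicate 3 (adjusted p from 0.0539 to 0.0697).

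MCL1, a short-lived anti-apoptotic protein encoded on chr1:150574551-150579738 (minus strand), was at 342, 307 and 277 CPM in K562 and 362, 351 and 386 in K562+L. It was at 432, 436 and 412 CPM in K562/IM and 229, 206 and 235 in the K562/IM+L-labelled libraries. K562/IM was above and the labelled group below every other library. MCL1 rose in K562/IM by 0.47 ± 0.09 on the log2 scale (adjusted p = 0.00281, edgeR). The K562/IM+L-labelled libraries fell by 0.91 against K562/IM (SE 0.07, adjusted p = 3.55e-05) and by 0.49 against K562 (SE 0.10, adjusted p = 0.00612, both edgeR). In K562+L the difference was 0.25 ± 0.10 (adjusted p = 0.0781, edgeR), and all 3 treated libraries lay above all 3 untreated ones. It passed without K562 replicate 1 (adjusted p = 0.0214).

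BCL2L2, which encodes BCL-W on chr14:23298790-23311759 (plus strand), varied little, from 32.6 CPM in a K562 library to 47.1 in 1 of those labelled K562/IM+L. It rose in K562/IM by 0.25 ± 0.09 (adjusted p = 0.0429, edgeR's quasi-likelihood test). The adjusted p was 0.0814 to 0.14 when any of the 3 K562/IM libraries was left out, 0.111 without K562 replicate 2 and 0.0948 without K562 replicate 3. In the other comparisons its log2 differences were 0.02 to 0.22 and did not pass, although upper-quartile scaling gave 0.37 (adjusted p = 0.0324, edgeR) for the K562/IM+L-labelled libraries against K562. The split of reads between BCL2L2 and the read-through symbol BCL2L2-PABPN1 is uncertain. The read-through symbol was counted 0 in 4 libraries (K562 replicate 1, K562+L replicate 3 and replicates 1 and 3 labelled K562/IM+L) and 452 to 998 in the other 8. With its counts added, a choice made after seeing the data, the number of members called was the same in all 5 comparisons.

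Among the effectors, BAK1 changed and BAX did not pass. BAK1 (chr6:33572547-33580293, minus strand) was at 28.9, 34.5 and 34.8 CPM in K562, 32.2, 29.5 and 26.8 in K562+L and 37.3, 35.9 and 38.8 in K562/IM. The K562/IM+L-labelled libraries held 17.6, 16.4 and 14.8 CPM, below all others. BAK1 fell there by 1.17 on the log2 scale against K562/IM (SE 0.09, adjusted p = 2.14e-05) and by 1.03 against K562 (SE 0.12, adjusted p = 0.00036, both edgeR). The differences were -0.15 ± 0.11 in K562+L (adjusted p = 0.321) and 0.19 ± 0.09 in K562/IM (adjusted p = 0.12, both edgeR).

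BAX (chr19:48954815-48961798, plus strand) was at 40.3, 47.0 and 59.2 CPM in K562 and 36.3, 39.7 and 31.9 in K562+L. It was at 45.9, 48.1 and 40.6 CPM in K562/IM and 44.7, 48.6 and 36.1 in the K562/IM+L-labelled libraries. The K562+L libraries all lay below the K562 libraries, the nearest 2 being 39.7 and 40.3 CPM. The log2 difference in K562+L was -0.44 ± 0.15 (adjusted p = 0.051, edgeR), just outside the threshold. It passed with DESeq2 in place of edgeR (adjusted p = 0.018). With edgeR it also passed with RLE or upper-quartile scaling, no low-count filter, all 12 libraries in the fit or counts divided by 4 (adjusted p from 0.0354 to 0.0499), and without K562 replicate 1 (adjusted p = 0.00923). In the other 3 comparisons BAX differed by -0.20 to -0.03 with adjusted p from 0.369 to 0.83 (edgeR).

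BCL2L11 (chr2:111119378-111168447, plus strand), whose product BIM binds all of the anti-apoptotic proteins, was at 43.1, 36.3 and 37.0 CPM in K562 and 25.8, 27.5 and 31.6 in K562+L. It was at 22.7, 21.7 and 22.1 CPM in K562/IM and 53.0, 50.9 and 60.0 in the K562/IM+L-labelled libraries. No 2 groups overlapped, and the labelled group was highest. BCL2L11 fell in K562/IM by 0.81 on the log2 scale (SE 0.09, adjusted p = 0.000211, edgeR). It rose in the K562/IM+L-labelled libraries, by 1.33 ± 0.09 against K562/IM (adjusted p = 1.12e-05) and by 0.47 ± 0.11 against K562 (adjusted p = 0.00725, both edgeR). In K562+L it fell by 0.46 (SE 0.11, adjusted p = 0.0164, edgeR). Without K562+L replicate 1 or replicate 2 the adjusted p was 0.0666 and 0.054.

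PMAIP1 (chr18:59899948-59904306, plus strand), whose product NOXA binds MCL1, was at 38.4, 39.2 and 33.1 CPM in K562 and 53.7, 60.1 and 59.5 in K562+L. It was at 62.8, 65.9 and 61.0 CPM in K562/IM and 33.9, 33.0 and 34.3 in the K562/IM+L-labelled libraries. K562+L and K562/IM lay above the other groups, which overlapped. PMAIP1 rose by 0.64 ± 0.10 in K562+L (adjusted p = 0.00285) and by 0.78 ± 0.09 in K562/IM (adjusted p = 0.00024, both edgeR). In the K562/IM+L-labelled libraries it fell by 0.88 against K562/IM (SE 0.07, adjusted p = 2.21e-05, edgeR) and differed from K562 by -0.15 ± 0.09 (adjusted p = 0.217). The rise in K562+L held when any 1 library was left out, at 0.57 to 0.69.

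BBC3 (chr19:47220822-47232766, minus strand), whose product is PUMA, was counted 464, 1505 and 598 times in the K562 libraries and 1890, 825 and 1945 in K562+L. Its counts were 2229, 904 and 2550 in K562/IM and 4245, 1247 and 3779 in the K562/IM+L-labelled libraries. Replicate 2 was the highest in K562 and the lowest in the other groups. On the log2 scale the SD within groups was 0.74, and 0.797% of 11667 genes had a larger one (median 0.14). The other 8 tested members had an SD of 0.08 to 0.20. The difference from K562 was 0.67 ± 0.44 in K562+L (adjusted p = 0.264), 0.93 ± 0.50 in K562/IM (adjusted p = 0.144) and 1.80 ± 0.53 in the K562/IM+L-labelled libraries (adjusted p = 0.0227, all edgeR). Only the last passed. It did not without K562 replicate 1, K562 replicate 3 or replicate 1 labelled K562/IM+L (adjusted p from 0.0567 to 0.0752, log2 values 1.43 to 1.61). Without K562 replicate 2 the other 2 also passed, at 1.32 (adjusted p = 0.0352) and 1.57 (adjusted p = 0.0235). The labelled group against K562/IM gave 0.92 ± 0.48 (adjusted p = 0.128), and 1.26 without its replicate 2 (adjusted p = 0.0299). The size and the calls of the BBC3 differences thus depended on single libraries, both on replicate 2 and on others.

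The question whether lycorine acted alike in both lines was tested as the difference of its effects over all 12 libraries. The effect in the K562/IM line as labelled, minus that in K562, was 2.12 ± 0.33 for BCL2 (adjusted p = 0.000181) and 1.76 ± 0.14 for BCL2L11 (adjusted p = 8.72e-07, both edgeR). It was -1.55 ± 0.11 for PMAIP1, -1.32 ± 0.10 for BCL2L1, -1.18 ± 0.12 for MCL1 and -1.04 ± 0.14 for BAK1 (adjusted p from 4.18e-07 to 6.32e-05, edgeR). PMAIP1 rose with lycorine in K562 and fell in the line labelled K562/IM, while BCL2L11 fell and rose. BAX differed by 0.39 ± 0.21 (adjusted p = 0.133), BCL2L2 by -0.18 ± 0.16 (adjusted p = 0.346) and BBC3 by 0.22 ± 0.74 (adjusted p = 0.819), which did not pass with edgeR. BAX passed without K562 replicate 1 (adjusted p = 0.0405) and without the labelled replicate 3 (adjusted p = 0.0484). Thus 2 members were higher and 4 lower, against 29.9% and 31.7% of the 13995 genes tested. Every one of these values rests on the label K562/IM+L, in which the summed level of the K562 markers, most of it from HBG1 and HBG2, also stood apart.

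Summed per kilobase of exon, the anti-apoptotic members held 115 ± 5.92 CPM per kilobase in K562 (SD, n = 3) and 122 ± 4.28 in K562+L. They held 180 ± 2.47 in K562/IM and 84.0 ± 3.36 in the K562/IM+L-labelled libraries. MCL1 made up 61.3%, 68.8%, 54.4% and 60.9% of that sum in the same order, and BCL2L1 30.8%, 22.8%, 39.9% and 26.9%. BCL2 made up at most 0.549% in any library. The effectors summed to 33.7 ± 4.98, 27.2 ± 2.40, 34.2 ± 0.870 and 24.0 ± 2.97 CPM per kilobase. BAX held 55.8% of the effector sum in K562 and 69.3% in the K562/IM+L-labelled libraries. These shares depend on the length used, which is 2587 bases for BAX as merged exons and 1358 as the longest transcript. For BAK1 it is 2212 by either, so that the share of BAX is larger with the longest transcript. The BH3-only members summed to 25.6 ± 2.93, 35.3 ± 1.67, 37.9 ± 2.09 and 34.9 ± 6.27 CPM per kilobase, so that K562 was lowest on average. PMAIP1 held 64.6% of that sum in K562, 73.2% in K562+L, 74.9% in K562/IM and 44.1% in the K562/IM+L-labelled libraries. These sums are of transcripts, and a protein such as MCL1 or NOXA, which is degraded quickly, can stand in another proportion.

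**Figure D3:**
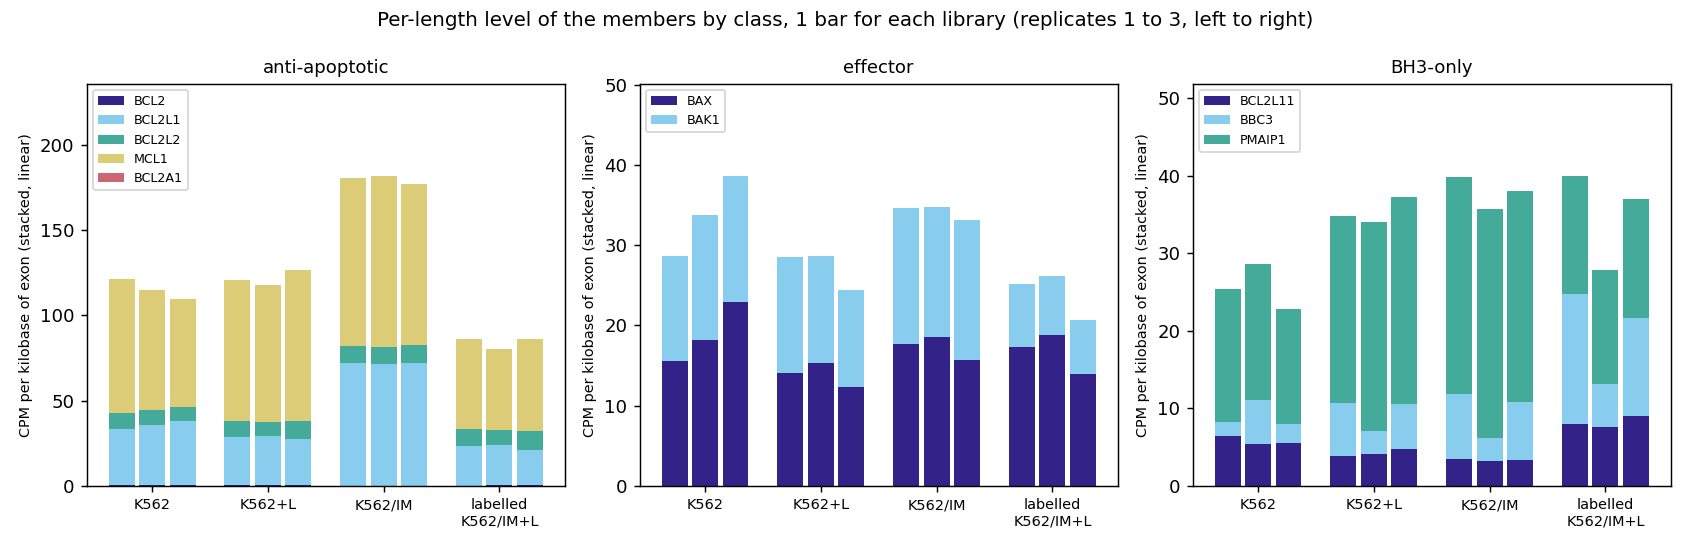
CPM per kilobase of exon (linear axis, stacked) of the anti-apoptotic, effector and BH3-only members in each of 12 libraries, replicates 1 to 3 from left to right within a group. MCL1 and BCL2L1 fill nearly all of the anti-apoptotic bars, whose mean is 180 in K562/IM and 84.0 in the K562/IM+L-labelled libraries, and the BBC3 segment of replicate 2 stands apart in each group.

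The ratio of BAX to BCL2 is often read as a summary of the family. On the log2 scale and per length it was 4.55, 5.21 and 5.53 in K562 and 4.89, 4.97 and 4.31 in K562+L. It was 8.31, 9.04 and 8.39 in K562/IM and 6.79, 6.23 and 6.38 in the K562/IM+L-labelled libraries. The first pair of groups overlapped, with means of 5.09 ± 0.50 and 4.72 ± 0.36 (SD, n = 3). The mean of 8.58 ± 0.40 in K562/IM was the highest and the labelled group was next at 6.47 ± 0.29, with no overlap. In K562/IM BAX did not pass the test against K562 (log2 difference -0.12) and BCL2 fell by 3.58. BCL2 was the 9th of the 10 members per length in every group, and BCL2L1 moved against it in K562/IM.

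**Figure D4:**
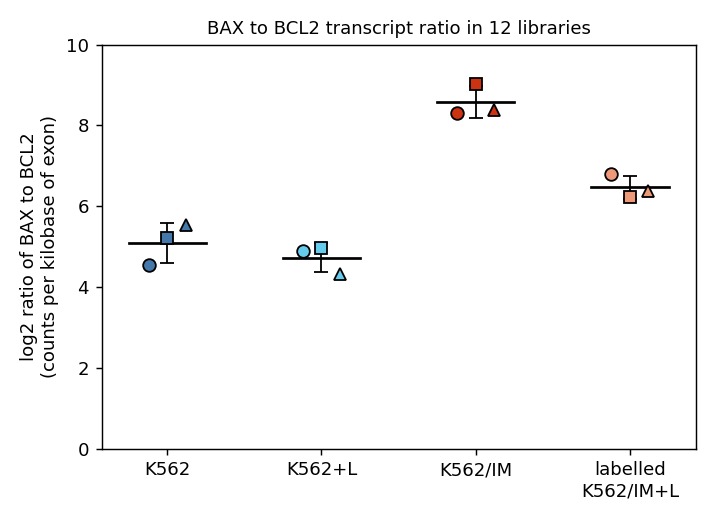
The log2 ratio of BAX to BCL2 (per kilobase of exon) in each of 12 libraries, with the mean (line) and SD (bars) of 3 libraries a group. K562 spans 4.55 to 5.53 and K562+L 4.31 to 4.97, which overlap, and K562/IM lies highest at 8.31 to 9.04.

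The levels of the members were also compared with each other and with all genes over the 12 libraries, as a description of libraries that fall into 4 groups. Pearson's r of the log2 levels was 0.91 between MCL1 and PMAIP1, -0.91 between MCL1 and BCL2L11 and -0.91 between BCL2L11 and PMAIP1. Among 11667 genes with a mean of at least 1 CPM, the nearest in pattern to BCL2L1 was LPCAT1 (r = 0.995), to MCL1 ATP2B1 (r = 0.993) and to PMAIP1 TRAF5 (r = 0.988). The nearest were NIBAN2 for BAK1 (r = 0.985), AGA for BCL2L11 (r = 0.976), ANXA5 for BCL2 (r = 0.976), DGUOK for BAX (r = 0.943) and ASB7 for BCL2L2 (r = 0.928). All points share libraries and depth, and a difference between groups alone gives a high r.

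Other BCL2 family genes were described from a list of 13. Of these 11 were tested in K562+L, where 0 were higher and 5 lower, against 18.2% and 19.0% of all genes. BAD, a BH3-only protein regulated by survival kinases, fell by 1.17 on the log2 scale there (SE 0.17, adjusted p = 0.00202, edgeR). It averaged 12.6 CPM in K562 and 5.61 in K562+L. In K562/IM 3 of 10 were higher and 3 lower, where 30.1% and 27.1% of all genes were. BMF, a BH3-only protein linked to the cytoskeleton, rose by 1.37 ± 0.18 (adjusted p = 0.000472), and BNIP3, a mitophagy receptor, fell by 1.36 (SE 0.08, adjusted p = 9.98e-06, both edgeR). In the K562/IM+L-labelled libraries, 6 of 10 were higher than in K562/IM and 1 lower (33.2% and 33.6% of all genes), and 4 of 11 were higher than in K562 and 4 lower (28.2% and 27.8%). BMF rose again there, by 1.34 ± 0.14 against K562/IM (adjusted p = 0.000108, edgeR), to 7.17 CPM from 2.88 in K562/IM. It averaged 1.11 CPM in K562. The lycorine effect differed between the lines as labelled for 6 of 11, all higher in K562/IM, where 29.9% of all genes were higher and 31.7% lower, with BAD at 2.03 ± 0.25, BNIP3 at 1.26 ± 0.13 and BMF at 1.47 ± 0.26 (adjusted p from 5.06e-06 to 0.000455, edgeR).

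Downstream of the family, 15 genes of the apoptosome and caspases were tested. In K562+L 0 were higher and 1 lower, in K562/IM 5 and 6, in the K562/IM+L-labelled libraries against K562/IM 4 and 7, and against K562 3 and 5. Over all genes the higher and lower shares in these comparisons were 18.2% and 19.0%, 30.1% and 27.1%, 33.2% and 33.6%, and 28.2% and 27.8%. CYCS, which encodes the cytochrome c that BAX and BAK pores release, averaged 851, 870, 472 and 247 CPM in K562, K562+L, K562/IM and the labelled group. It fell in the last by 1.80 on the log2 scale against K562 (SE 0.09, adjusted p = 1.22e-05, edgeR). CASP6, an executioner caspase, rose by 1.16 ± 0.18 in the K562/IM+L-labelled libraries against K562/IM (adjusted p = 0.000923, edgeR). Of the 6 inhibitors of apoptosis tested, 2 were higher in K562+L and 0 lower (18.2% and 19.0% of all genes), and 3 were higher in K562/IM and 1 lower (30.1% and 27.1%). BIRC3 rose most clearly in K562/IM, by 2.29 ± 0.23 (adjusted p = 0.000114, edgeR). In the K562/IM+L-labelled libraries it fell by 1.18 against K562/IM (SE 0.16, adjusted p = 0.000384, edgeR). Against K562 it was higher there, by 1.07 ± 0.26 (adjusted p = 0.0113, edgeR). In the labelled group 1 of 6 was higher and 2 lower than in K562/IM (33.2% and 33.6% of all genes), and 3 and 1 than in K562 (28.2% and 27.8%).

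Of 10 partners at the mitochondrial membranes, 1 was higher and 1 lower in K562+L (18.2% and 19.0% of all genes) and 0 and 7 in K562/IM (30.1% and 27.1%). In the K562/IM+L-labelled libraries 4 were higher and 3 lower than in K562/IM (33.2% and 33.6%), and 2 and 6 than in K562 (28.2% and 27.8%). OPA1, which keeps the cristae closed, averaged 126, 143, 133 and 52.6 CPM and fell in the labelled group by 1.31 against K562/IM (SE 0.09, adjusted p = 1.83e-05, edgeR). The protease OMA1, known to cleave OPA1, fell in K562/IM by 1.20 (SE 0.09, adjusted p = 3.6e-05, edgeR). In the labelled group OMA1 rose by 1.13 ± 0.10 against K562/IM (adjusted p = 3.9e-05) and differed from K562 by -0.11 ± 0.09 (adjusted p = 0.299, both edgeR). VDAC1, the main pore of the outer membrane, fell by 1.25 in the labelled group against K562 (SE 0.09, adjusted p = 4.26e-05, edgeR). Death receptors and their adaptors feed into the family through BID. The list of them also holds ligands and regulators, so that its counts give no direction of signalling. In K562/IM 6 of 11 were higher and 0 lower (30.1% and 27.1% of all genes), and in the labelled group 2 were higher than in K562/IM and 7 lower (33.2% and 33.6%). Those called most strongly were TNFRSF10B, a TRAIL receptor, at 20.5, 15.8, 56.1 and 3.03 CPM, and TNFRSF21 at 1.97, 3.74, 13.4 and 0.225 CPM in the 4 groups. FAS, another death receptor, rose in K562/IM by 2.13 ± 0.18 (adjusted p = 5.22e-05, edgeR), from 2.77 to 12.1 CPM. In K562+L 1 of 10 was higher and 5 lower (18.2% and 19.0% of all genes), and in the labelled group against K562 2 of 10 and 5 (28.2% and 27.8%).

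Genes that act on the turnover of MCL1 and the BH3-only proteins were 7 in the table. In K562+L 3 were higher and 0 lower (18.2% and 19.0% of all genes), and in K562/IM 4 and 0 (30.1% and 27.1%). In the labelled group 0 were higher and 3 lower than in K562/IM (33.2% and 33.6%), and 2 and 1 than in K562 (28.2% and 27.8%). HUWE1, a ubiquitin ligase of MCL1, averaged 351, 644, 535 and 358 CPM in the 4 groups, and its lycorine effect differed between the lines as labelled by -1.45 ± 0.29 (adjusted p = 0.000917, edgeR). TRIM17, also reported as a ligase of MCL1, rose in K562/IM by 2.93 ± 0.28 (adjusted p = 9.23e-05, edgeR), from 0.828 to 6.31 CPM. Of 17 transcription factors known to act on family genes, 7 were higher and 3 lower in K562+L (18.2% and 19.0% of all genes). In K562/IM 4 were higher and 3 lower (30.1% and 27.1%). In the labelled group 7 were higher and 3 lower than in K562/IM (33.2% and 33.6%), and 6 and 3 than in K562 (28.2% and 27.8%). In these 4 comparisons the share of higher factors lay above that of all genes except in K562/IM, and the share of lower ones lay below it. The lycorine effect in K562/IM as labelled minus that in K562 went the other way. There 4 of 17 were higher and 8 lower, against 29.9% and 31.7% of all genes. JUN rose by 3.36 ± 0.10 in K562+L (adjusted p = 6.79e-06, edgeR), from 29.5 to 304 CPM. ATF3, a stress factor of the ATF/CREB family, rose by 1.29 ± 0.10 there (adjusted p = 0.000173), and FOXO3 by 1.29 ± 0.13 (adjusted p = 0.000492, both edgeR). FOXO4 rose in the labelled group by 1.55 ± 0.08 against K562/IM (adjusted p = 3.54e-06) and MYC fell by 1.16 (SE 0.09, adjusted p = 2.17e-05, both edgeR). TP73, a factor known to act on BBC3 and PMAIP1, rose in K562/IM by 1.10 ± 0.08 (adjusted p = 2.34e-05, edgeR).

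The promoters of the members were searched for motifs of such factors on both strands, in RefSeq windows of GRCh38.p14 from before to just after the transcript start. Windows were found for 8 members. The E-box CACGTG, bound by MYC among others, was present 4 times in BAX and once in BBC3 and occurs in 7.26% of all 35093 promoter windows. TGACGT, bound by ATF/CREB factors, was present in PMAIP1 and in 7.98% of windows, and GTAAACA, bound by FOXO factors, in BCL2L11 and in 3.42% of windows. The palindrome TTCNNNGAA, read by STAT factors, was present in BCL2A1 and in 7.66% of windows. The motifs do not overlap each other in these windows. Printed below are the windows of BCL2L11 and PMAIP1, which moved in opposite directions in 3 comparisons, and of BAX, with the motif in capitals. In PMAIP1 the motif lies on the other strand and reads ACGTCA.

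BCL2L11: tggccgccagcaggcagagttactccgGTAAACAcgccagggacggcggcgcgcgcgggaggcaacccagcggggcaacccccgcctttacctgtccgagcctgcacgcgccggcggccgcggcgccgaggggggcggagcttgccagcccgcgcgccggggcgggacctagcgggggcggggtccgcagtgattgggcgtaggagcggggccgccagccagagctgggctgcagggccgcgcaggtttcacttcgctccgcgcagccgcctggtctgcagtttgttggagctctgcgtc
PMAIP1: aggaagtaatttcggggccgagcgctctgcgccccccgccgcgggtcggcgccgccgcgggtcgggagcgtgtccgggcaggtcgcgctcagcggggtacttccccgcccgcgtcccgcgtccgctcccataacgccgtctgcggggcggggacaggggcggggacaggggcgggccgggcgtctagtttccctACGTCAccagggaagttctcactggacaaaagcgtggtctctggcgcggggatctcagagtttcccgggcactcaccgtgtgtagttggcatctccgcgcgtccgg
BAX: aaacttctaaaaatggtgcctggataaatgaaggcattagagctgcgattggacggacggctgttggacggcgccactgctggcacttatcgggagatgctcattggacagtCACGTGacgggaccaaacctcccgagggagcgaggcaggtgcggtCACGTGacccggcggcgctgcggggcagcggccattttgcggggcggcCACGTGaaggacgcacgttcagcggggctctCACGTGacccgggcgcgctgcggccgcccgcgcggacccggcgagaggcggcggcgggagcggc

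They lie at chr2:111120664-111120963 (plus strand), chr18:59899746-59900045 (plus strand) and chr19:48954625-48954924 (plus strand). Beside them stand the values of the factors. FOXO3 averaged 32.9, 80.9, 37.3 and 50.9 CPM in K562, K562+L, K562/IM and the K562/IM+L-labelled libraries, and FOXO4 28.3, 26.1, 23.1 and 66.3. BCL2L11 averaged 38.8, 28.3, 22.2 and 54.6 CPM in the same order. ATF3 averaged 24.3, 59.5, 21.7 and 28.3 CPM and ATF4 486, 305, 405 and 569, beside 36.9, 57.7, 63.2 and 33.7 for PMAIP1. MYC averaged 141, 236, 129 and 56.7 CPM, beside 48.8, 35.9, 44.9 and 43.1 for BAX. A motif match is a description of the sequence, and whether a factor was bound there was not measured.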

How the data were processed

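Polyadenylated RNA was measured in 12 libraries, 3 each of K562, K562+L, K562/IM and the K562/IM+L-labelled libraries, grouped by their labels. The deposited file holds an estimated count, a whole number, for each gene symbol in each library; the authors did not normalize it, and their notes name FastQC, STAR, StringTie, DESeq2 and hg38, with no version. Totals per library ran from 75093844 to 107344598. Of 23289 values from 1 to 25, 67.9% lay at multiples of 4 or at 1 more than those, where 52% of whole numbers do, so that a count need not be a read and no counting limits are given. The deposited counts were read as they stand.

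Each pair of groups (6 libraries) was fitted with edgeR 4.0.16 in R 4.3.3, with filterByExpr (minimum count 10), TMM, the quasi-likelihood test and Benjamini-Hochberg adjustment over all genes tested. The interaction used all 12 libraries. A gene passed at an adjusted p under 0.05; where a fold threshold is named, its absolute log2 fold change was also over 1. SE is the log2 fold change divided by the square root of F. CPM used TMM over 12 libraries, and per-length values the merged exons of GENCODE 29, matched for 19029 of 19447 symbols. No test was made on ratios, sums or the order of members. The p-values measure the spread between libraries, which may be technical.

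The members and lists (other BCL2 family genes, apoptosome and caspases, inhibitors of apoptosis, mitochondrial partners, death receptors, MCL1 and BH3-only turnover, transcription factors, and markers of K562, T, B, fibroblast, epithelial and monocyte cells) were chosen with earlier results of these data known. Named genes were all members, the genes of a list past both thresholds (at most 3 per direction by p), of which a selection is given, the genes nearest to a member in pattern, and ABCB1 as a check of the label. Some single genes within this rule are not reported here, and counts over lists include them. Alternatives were DESeq2 1.42.0, RLE and upper-quartile scaling, no low-count filter, all libraries in a fit, counts divided by 4, a block for the replicate number, leaving out single libraries and another length. The test was checked on simulated counts. No group had over 3 libraries, so outlying libraries were not tested for. Protein measurements were not analysed here.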

Additional observations from a re-analysis of the deposited data

Results flagged for a closer look

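The lycorine effect in the line labelled K562/IM differed from that in K562 for 6 members, by the interaction term of edgeR's quasi-likelihood test over all 12 libraries. Of the 9 members tested 2 were higher and 4 lower, where 29.9% of the 13995 genes tested were higher and 31.7% lower. By the adjusted p alone the count is thus near that of all genes and is no result about the members. All 6 also passed the fold threshold, but the share of all genes that did so was not computed, and nothing is read from that count. On the log2 scale the difference was 2.12 for BCL2, 1.76 for BCL2L11, -1.32 for BCL2L1, -1.18 for MCL1, -1.55 for PMAIP1 and -1.04 for BAK1. Each kept an adjusted p under 0.05 when any 1 library was left out, with BCL2 between 1.84 and 2.29 and PMAIP1 between -1.60 and -1.48, and BAK1 lay between -1.11 and -0.95. These 6 values rest on the K562/IM+L-labelled libraries, whose ABCB1 was below that of K562 and whose summed K562 markers were highest, and the part of either in the differences was not tested.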

How the results depend on the processing

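With all 12 libraries in the fit 5 members passed in K562+L in place of 3, and with the replicate block 1 did, PMAIP1. Leaving out 1 library gave 1 to 5 there, 5 to 6 in K562/IM, 6 to 7 in the K562/IM+L-labelled group against K562/IM, 5 to 6 against K562, and 6 to 7 in the interaction. The cause was not tested. Replicate numbers did not pair the samples: correlations of same-numbered deviations ran from -0.60 to 0.44, and 2 of 12 libraries correlated best with their own number. With the block, 6, 7 and 5 members were called in the interaction and in the labelled group against K562/IM and K562, and 5 in K562/IM. With it BBC3 passed in the labelled group against K562/IM (0.91, adjusted p = 0.000334, edgeR) and no longer against K562 (1.88, adjusted p = 0.0749), and BCL2L1 and BCL2L11 in K562+L and BCL2L2 in K562/IM did not pass. Among called members, 389 values under alternatives kept their direction and call, 19 lost the call and 0 turned. Among those not called, 236 stayed, 16 passed and 15 changed sign.

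The 15 were BCL2 in K562+L without K562 replicate 1 (0.0864) and without K562+L replicate 1 (0.0099), within -0.195 to 0.0864 over libraries left out. BAX in K562/IM was 0.0283 without K562 replicate 3 (range -0.277 to 0.0283). In the labelled group against K562/IM, BAX was 0.0276 with upper-quartile scaling, 0.016 without K562/IM replicate 2 and 0.0846 without labelled replicate 3 (range -0.124 to 0.0846). BCL2L2 there was -0.0024 with all 12 libraries, -0.0090 without K562/IM replicate 1, -0.0596 without labelled replicate 3 (range -0.0596 to 0.12) and -0.0161 with its read-through symbol added, the 1 alternative chosen after seeing the data. PMAIP1 against K562 was 0.0015 with upper-quartile scaling. The interaction of BBC3 was -0.42 without K562 replicate 2, -0.06 without K562+L replicate 2, -0.11 without K562/IM replicate 2 and -0.14 without labelled replicate 1 (range -0.42 to 0.53).

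Without division by length the log2 ratio of BAX to BCL2 was 2.91, 2.54, 6.39 and 4.28 in K562, K562+L, K562/IM and the labelled group, a shift by 1 constant, and leaving out 1 library moved the per-length means over 4.88 to 5.37, 4.60 to 4.93, 8.35 to 8.71 and 6.31 to 6.59. With the longest transcript as length, 34 of 40 places in the per-length order were the same. Among those that moved, BAX stood before BCL2L1 in the labelled group. Upper-quartile scaling moved the median of all genes by 0.13 in the interaction and by under 0.06 in the other comparisons that had not moved by 0.15. Only 3 libraries a group limit the precision, and BCL2 in K562/IM rests on few counts.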
